A study of Mus musculus with 4 samples.

Results

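Imprinted genes are expressed mainly from the chromosome copy inherited from the mother or from the father. The 40 imprinted genes described here were chosen by symbol, and their rows were taken wherever the gene column of the deposited table named them, alone or joined with other symbols. All 40 were found, in 43 of the table's 28168 loci. They lie in 16 chromosomal clusters, and for a gene with several loci the one with the highest mean level is given. RNA came from mature olfactory sensory neurons, the odour-detecting neurons of the nasal epithelium, which were sorted by fluorescence from dissociated mouse tissue. There were 2 Nd1 libraries and 2 control libraries. Mice of both Nd1 libraries were Nd1+/-, OMP-IRES-tTA+/- and OMP-IRES-GFP+/-, at 212 days (replicate 1) and 87 days (replicate 2). The control of replicate 1 was Nd1+/- without tTA (OMP-IRES-tTA-/-) at 212 days. The control of replicate 2 was Nd1-/- with OMP-IRES-tTA+/- at 87 days, and both controls carried OMP-IRES-GFP+/-. The GFP reporter was thus shared by all mice, and the tTA transactivator and the reporter both sit at Omp, the gene of the olfactory marker protein, which restricts them to mature neurons. The series title names the product of the transgenic mice as genomically encoded double-stranded RNA, and its design text describes neurodegeneration in the lines. The table's title line calls the controls littermates, and how many mice entered a library is not stated.

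The table holds 1 pooled value per group, as FPKM (fragment counts scaled to transcript length and to library size), so no library can be shown apart and no spread between replicates can be given. Calls are those of the authors' deposited table, at q under 0.05 for Nd1 against control, and "rose" and "fell" are kept for called genes. Of 14841 tested loci 34.4% were called, 15.1% higher and 19.2% lower in Nd1. Markers of mature olfactory neurons were abundant in both groups, with a summed level of 8135 FPKM over 14 genes in Nd1 and 18595 FPKM in control, and 10 of 13 tested were called lower and none higher. Markers of immature neurons summed to 926 FPKM over 12 genes in Nd1 and 479 FPKM in control, and 10 of 12 tested were called higher and none lower. In sorted bulk RNA, fewer cells of a type and less RNA per cell cannot be told apart.

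Genomic imprints are DNA methylation marks set in the germ line, and each controls a cluster of neighbouring genes, often through a long non-coding RNA or an insulator. Many imprinted genes act on growth, on placental and metabolic functions and on the nervous system. In neurons some use an allele or isoform that other tissues do not, as Ube3a, Grb10 and Gnas do. The deposited values do not separate the parental alleles, so levels here are sums over both.

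The imprinted genes moved in both directions. Of 25 tested, 6 rose and 7 fell, which is 52.0% called beside 34.4% of all tested loci. The genes that rose were Snrpn, Gnas, Sgce, Copg2, Usp29 and Kcnq1ot1, and those that fell were Dio3os, Dio3, Rian, Meg3, Grb10, Nap1l5 and Inpp5f. The falls were mostly larger than the rises. They lay between 2.02-fold and 16.5-fold with a median of 2.98-fold, against 1.27-fold to 2.13-fold with a median of 1.63-fold. At q under 0.01, where 27.2% of tested loci were called (12.2% higher and 14.9% lower), 5 of these genes stayed called higher and 7 lower. Odorant receptor loci fell widely, and without them 30.3% of tested loci were called at q under 0.05, 16.2% higher and 14.1% lower. A further 12 tested genes were not called, 13 were not tested by the authors and the test failed for 2. The median log2 ratio over all 40 genes, on the scale log2(FPKM + 1), was 0.0090, and over all 28168 loci it was 0, where 7433 loci were listed at 0 in both groups. All 4 tested genes of the Dlk1-Dio3 cluster fell, and without that cluster 6 of 21 tested genes rose and 3 fell (42.9% called). Those 3 falls, of 2.02-fold (Inpp5f), 2.31-fold (Nap1l5) and 2.44-fold (Grb10), were near the largest rise of 2.13-fold. Among the genes that fell, Dio3, Rian and Grb10 were under 1 FPKM in both groups. Fold sizes over all called loci were not compared.

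**Figure D1:**
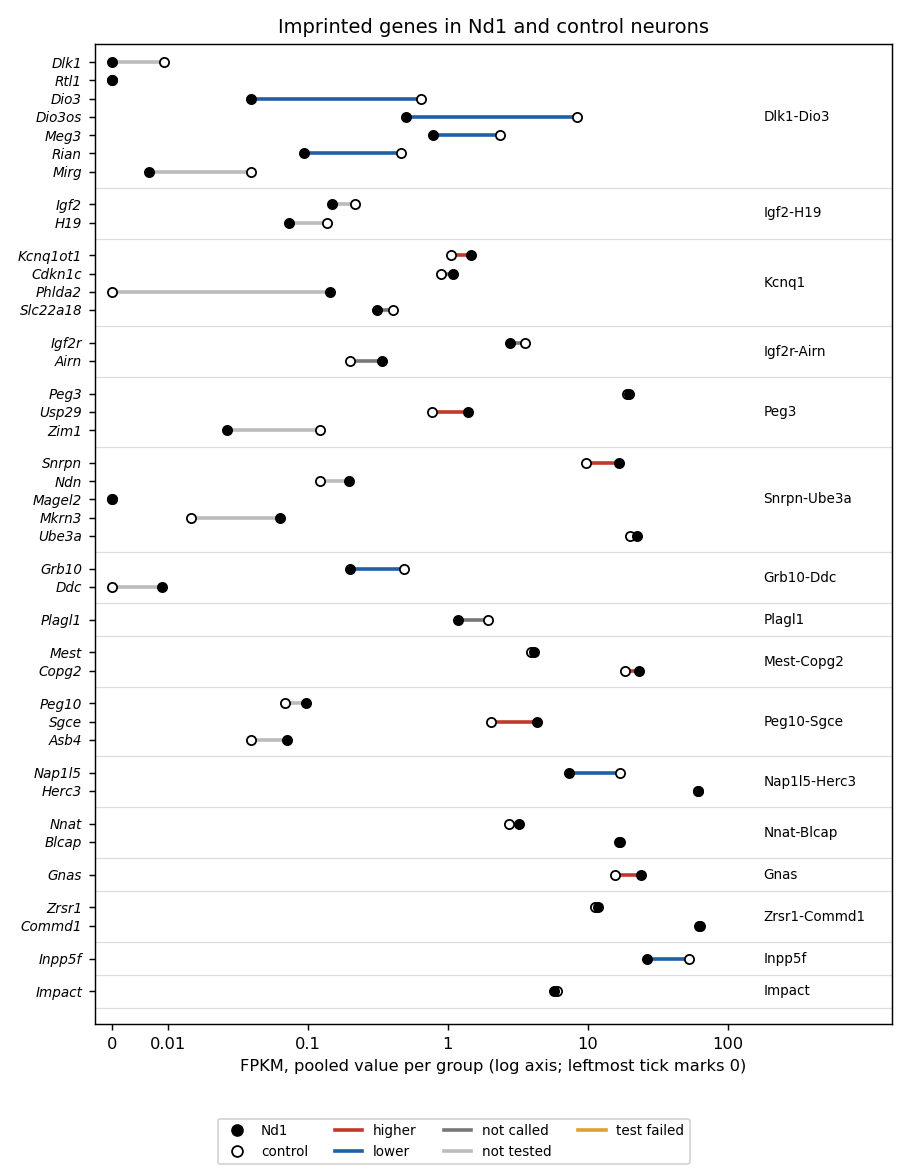
Pooled FPKM of each of the 40 imprinted genes in Nd1 (filled) and control (open), grouped by cluster, on a log axis whose leftmost tick marks 0. Lines are coloured by the authors' call, and the longest coloured ones belong to Dio3 and Dio3os at 16.4-fold and 16.5-fold.

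The sequences shown are those of the Dlk1-Dio3 cluster, where the falls were concentrated, and of a promoter shared by a gene that rose and a gene that did not pass. They were taken from RefSeq on GRCm38.p6, another build than the mm9 of the table's loci, and 34 of the 40 genes had a promoter entry. For Meg3, Dio3 and Dio3os the 250 bases before the first transcribed base are given. In Meg3 (chr12:109540746-109540995, plus strand) and Dio3 (chr12:110278980-110279229, plus strand) capitals mark matches to TGACGTCA and TATAAA on either strand. In Dio3os (chr12:110278069-110278318, minus strand) capitals mark the 61 bases of the Mir1247 hairpin that lie in the window.
Meg3: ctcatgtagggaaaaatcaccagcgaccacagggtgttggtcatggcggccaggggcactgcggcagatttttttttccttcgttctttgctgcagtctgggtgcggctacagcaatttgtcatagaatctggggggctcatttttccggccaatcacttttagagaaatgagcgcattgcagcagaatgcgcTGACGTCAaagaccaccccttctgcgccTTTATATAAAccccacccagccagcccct
Dio3: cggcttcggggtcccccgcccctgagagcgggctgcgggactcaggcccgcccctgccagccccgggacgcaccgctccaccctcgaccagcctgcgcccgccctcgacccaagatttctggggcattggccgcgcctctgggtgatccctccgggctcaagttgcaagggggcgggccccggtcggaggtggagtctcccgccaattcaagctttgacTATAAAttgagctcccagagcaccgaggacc
Dio3os: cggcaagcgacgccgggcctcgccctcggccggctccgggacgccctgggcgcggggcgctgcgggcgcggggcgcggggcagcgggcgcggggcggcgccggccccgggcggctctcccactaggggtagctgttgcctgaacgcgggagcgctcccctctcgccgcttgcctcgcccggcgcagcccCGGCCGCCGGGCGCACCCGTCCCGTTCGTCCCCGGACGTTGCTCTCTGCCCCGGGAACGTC

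TGACGTCA, the palindromic cAMP response element, starts 57 bases before the Meg3 start and was found in 1.55% of 32851 promoter windows of this length. TATAAA, the TATA box, starts 31 bases before the Dio3 start. In Meg3 it matches on both strands, in overlapping positions 29 and 25 bases before the start, and 12.4% of all windows hold it. The Dio3os window has neither motif, but it has 44 CG dinucleotides, a number reached by 0.539% of windows, beside 21 in Dio3, 10 in Meg3 and a median of 6. The starts of Dio3os and Dio3 point away from each other with 1161 bases between them. A match of letters is a description only.

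The joined entry of Dio3os also carries Mir1247, whose mature miRNAs are given with their seeds (bases 2 to 8) in capitals, the 5p arm at chr12:110278094-110278115 and the 3p arm at chr12:110278058-110278078, both on the minus strand. Neither seed is shared with another of the 1738 mature miRNAs in the RefSeq table.
miR-1247-5p: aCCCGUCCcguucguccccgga
miR-1247-3p: cGGGAACGucgagacuggagc

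The region between the starts of Peg3 and Usp29, which point away from each other, is 163 bases long (chr7:6730420-6730582, given on the plus strand, Usp29 side last). It holds no match to TGACGTCA or TATAAA.
Peg3 to Usp29: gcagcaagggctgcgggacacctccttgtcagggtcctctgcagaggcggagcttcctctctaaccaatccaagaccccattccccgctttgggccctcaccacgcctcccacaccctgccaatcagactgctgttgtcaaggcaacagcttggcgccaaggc

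The Dlk1-Dio3 cluster on chromosome 12 was lower in Nd1 in every gene called. This cluster expresses the protein genes Dlk1, Rtl1 and Dio3 from the paternal copy and the non-coding RNAs Meg3, Rian and Mirg from the maternal copy. Dio3os, the antisense RNA beside Dio3 (mm9 chromosome 12, 111140611 to 111821271, a locus entry that Dio3 shares), stood at 0.505 FPKM in Nd1 and 8.34 FPKM in control, a 16.5-fold lower level. Its log2 ratio is given as -4.05 (q = 3.49e-07) by the authors' deposited table. Dio3, which encodes the deiodinase that inactivates thyroid hormone, stood at 0.0392 FPKM in Nd1 and 0.642 FPKM in control, and the authors' deposited table lists -4.03 as its log2 ratio (q = 0.000653). Dio3 stood at 7.77% of the Dio3os level in Nd1 and 7.71% in control. Both levels of Dio3 were under 1 FPKM. The entries share the coordinates of a single long locus, and the labels name no stranded protocol. By the RefSeq starts given above, Dio3 and Dio3os point away from each other and do not overlap. In any stretch where the table's own annotation lets them overlap, reads could not be told apart.

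Meg3, a long non-coding RNA (mm9 chromosome 12, 110779206 to 110809939), stood at 0.789 FPKM in Nd1 and 2.35 FPKM in control, a 2.98-fold lower level (q = 8.98e-06 in the authors' deposited table). Rian, a host of small nucleolar RNAs and miRNAs, is joined with the snoRNA AF357425 in its entry and stood at 0.0942 FPKM in Nd1 and 0.460 FPKM in control, a 4.88-fold lower level (q = 0.00388 in the authors' deposited table). The 2 called maternal RNAs therefore fell less steeply than Dio3 and Dio3os, a difference that was not tested. Mirg, a miRNA host RNA, was not tested by the authors and was listed at 0.00737 FPKM in Nd1 and 0.0395 FPKM in control. Dlk1, a transmembrane relative of Notch ligands, was not tested either, being listed at 0 in Nd1 and at 0.00938 FPKM in control. Rtl1, a retrotransposon-derived gene, was listed at 0 in both groups. The table also lists 45 separate miRNA entries in this region and its surroundings, all at 0 in both groups. Libraries were made from polyadenylated RNA, so mature miRNAs were not measured.

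Neighbours were taken within 500 kb of the span of this cluster's table entries. That span ends with the long entry of Dio3, so some neighbours may lie farther than 500 kb from Dio3 itself. Of 13 tested named neighbours that are not among the imprinted genes, 1 was called higher, 1 was called lower and 11 were not called. This is 15.4% called, beside 34.4% of all tested loci, a difference that was not tested. Ppp2r5c, a phosphatase subunit listed in the same locus as Dio3, had 31.8 FPKM in Nd1 and 29.1 FPKM in control and was not called. Wdr25, on the other side of Dlk1, had 2.91 FPKM in Nd1 and 3.19 FPKM in control and was not called. The chaperone gene Hsp90aa1 fell to 136 FPKM in Nd1, against 173 FPKM in control. The transcript B930059L03Rik rose to 4.21 FPKM in Nd1, against 2.52 FPKM in control.

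**Figure D2:**
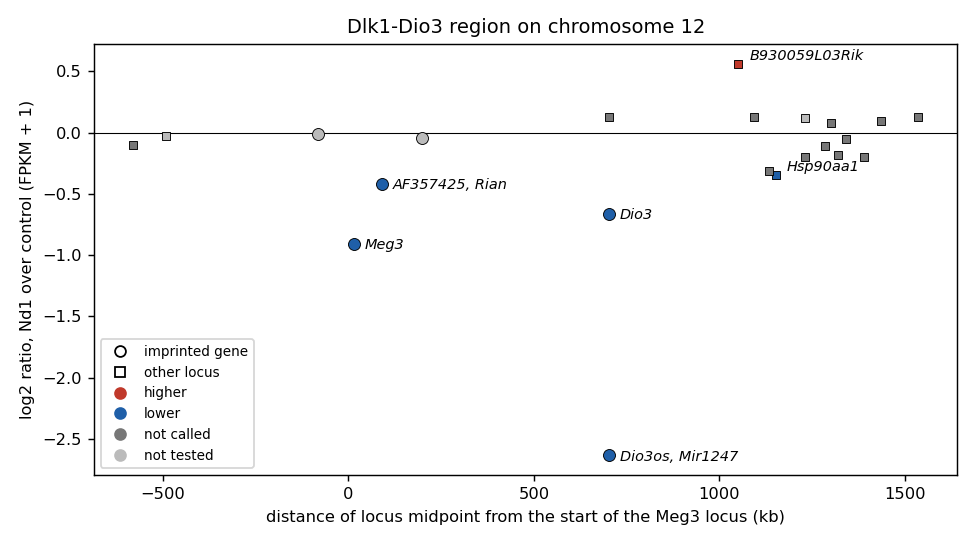
Log2 ratio of Nd1 over control on the scale log2(FPKM + 1) for each locus above 0 in either group, against the distance of the locus midpoint from the start of Meg3 in kb. Circles are imprinted genes and squares other loci. Dio3 and Dio3os share a single long locus entry and so share a midpoint, and the 4 called circles all lie below 0.

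Markers of other cells in the sort had list sums below that of mature neurons, and some moved in the same direction as this cluster. The 7 imprinted genes of this cluster themselves summed to only 1.43 FPKM in Nd1 and 11.8 FPKM in control. Neutrophil markers summed to 6.46 FPKM over 6 genes in Nd1 and 30.3 FPKM in control, with 5 of 6 tested called lower and none at 0. Mesenchyme and fibroblast markers summed to 11.0 FPKM over 9 genes in Nd1 and 13.7 FPKM in control, with 2 of 6 tested called lower and none at 0. Pdgfra fell to 0.148 FPKM in Nd1, against 1.03 FPKM in control. Pdgfrb fell to 0.247 FPKM in Nd1, against 0.885 FPKM in control. The 4 tested genes not called included Col1a1 (4.65 FPKM in Nd1 and 4.48 FPKM in control) and Dcn (2.46 FPKM in Nd1 and 3.09 FPKM in control). Ensheathing glia markers summed to 4.39 FPKM over 7 genes in Nd1 and 4.78 FPKM in control. Macrophage and monocyte markers summed to 3.69 FPKM in Nd1 and 7.31 FPKM in control. Most of both sums came from Lyz2, the only gene of the list called, at 2.24 FPKM in Nd1 and 6.25 FPKM in control. The other markers of this list lay on both sides of their control level, and none of them was called. Lymphocyte markers summed to 5.97 FPKM in Nd1, most of it from Gzma, and to 0.864 FPKM in control, and Cd3g was at 0 in both groups. Endothelium markers summed to 3.27 FPKM over 6 genes in Nd1 and 2.43 FPKM in control. Of 2 tested, 1 was called higher, Pecam1 (2.68 FPKM in Nd1 and 1.49 FPKM in control). Progenitor and basal cell markers gave 4 lower among 5 tested, with sums of 8.09 FPKM in Nd1 and 14.5 FPKM in control. Sustentacular cell markers gave 5 lower among 10 tested, with sums of 69.6 FPKM in Nd1 and 88.7 FPKM in control. The highest of them, Cyp2a5, had 28.0 FPKM in Nd1 and 30.9 FPKM in control and was not called. Dcn is also in the list of further imprinted genes described later, and Notch2 is also in the Notch list. The part of these cells in the levels of Dlk1-Dio3 genes was not tested.

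Genes of the Prader-Willi and Angelman region on chromosome 7 were led by Snrpn, Ube3a and a set of nearly silent genes. Snrpn encodes a spliceosomal Sm protein of neurons and is joined with Snurf in the table. It rose to 16.8 FPKM in Nd1, against 9.70 FPKM in control, or 1.73-fold (q = 4.78e-05 in the authors' deposited table). An entry without a symbol at the same coordinates had 20.2 FPKM in Nd1 and 24.4 FPKM in control and was not called. Where it overlaps Snrpn, reads cannot be told apart without strand. Ube3a, an E3 ubiquitin ligase expressed from the maternal copy in neurons, had 22.3 FPKM in Nd1 and 19.9 FPKM in control and was not called (q = 0.261 in the authors' deposited table). A second locus named Ube3a had 0.583 FPKM in Nd1 and 0.603 FPKM in control. The MAGE family genes were barely detected: Ndn had 0.198 FPKM in Nd1 and 0.122 FPKM in control, and Magel2 was listed at 0 in both. Mkrn3, a RING finger gene, had 0.0637 FPKM in Nd1 and 0.0146 FPKM in control, and none of these 3 was tested.

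In the Peg3 cluster of chromosome 7, Peg3 and Usp29 share the promoter region printed above. Usp29, a ubiquitin-specific protease gene, rose to 1.38 FPKM in Nd1, against 0.772 FPKM in control (q = 0.0103 in the authors' deposited table). Peg3, a zinc finger gene, had 19.6 FPKM in Nd1 and 19.1 FPKM in control and was not called, and the authors' deposited table lists 0.034 as its log2 ratio. Usp29 thus stood at 7.06% of the Peg3 level in Nd1 and 4.03% in control, and the call of Usp29 is lost at q under 0.01. Whether the 2 ratios differ beyond replicate error cannot be tested from pooled values. Zim1, a zinc finger gene expressed from the maternal copy, was not tested, with 0.0266 FPKM in Nd1 and 0.123 FPKM in control.

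In the Kcnq1 cluster the antisense RNA and its host moved apart. Kcnq1ot1, the long antisense RNA that silences neighbouring genes on the paternal copy, rose to 1.47 FPKM in Nd1, against 1.05 FPKM in control (q = 0.000758 in the authors' deposited table). Kcnq1, the potassium channel gene within which it is transcribed, fell to 7.76 FPKM in Nd1, against 11.2 FPKM in control (q = 1.63e-10 in the authors' deposited table). The level of Kcnq1ot1 was 18.96% of that of Kcnq1 in Nd1 and 9.37% in control. Without strand, reads of these overlapping genes cannot be told apart. The same holds, where they overlap, for Igf2r and Airn, Nap1l5 and Herc3, Zrsr1 and Commd1, Nnat and Blcap, and Mest and Copg2. Cdkn1c and Slc22a18, which like Kcnq1 are expressed from the maternal copy, were not called. Cdkn1c, a cyclin-dependent kinase inhibitor, had 1.09 FPKM in Nd1 and 0.899 FPKM in control. Slc22a18, a transporter-like gene, had 0.312 FPKM in Nd1 and 0.403 FPKM in control. Phlda2, a growth inhibitor of the placenta, was listed at 0.144 FPKM in Nd1 and at 0 in control and was not tested.

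The classical growth pair next to it was nearly silent. Igf2, the insulin-like growth factor expressed from the paternal copy, had 0.148 FPKM in Nd1 and 0.217 FPKM in control. H19, the maternally expressed non-coding RNA of the same cluster, had 0.0729 FPKM in Nd1 and 0.137 FPKM in control, and neither gene was tested. Igf2r, the receptor that clears this factor, had 2.76 FPKM in Nd1 and 3.57 FPKM in control (q = 0.0797 in the authors' deposited table). Airn, the antisense RNA of Igf2r, had 0.338 FPKM in Nd1 and 0.201 FPKM in control and was not called either. Grb10, an adaptor that restrains insulin and IGF receptor signalling, fell to 0.2002 FPKM in Nd1, against 0.487 FPKM in control, a 2.44-fold lower level (q = 0.00716 in the authors' deposited table). Both its values were under 1 FPKM. Ddc, the amino acid decarboxylase gene beside Grb10, was listed at 0.00902 FPKM in Nd1 and at 0 in control. Plagl1, a zinc finger transcription factor, had 1.17 FPKM in Nd1 and 1.94 FPKM in control, just outside the threshold (q = 0.0572 in the authors' deposited table).

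**Figure D3:**
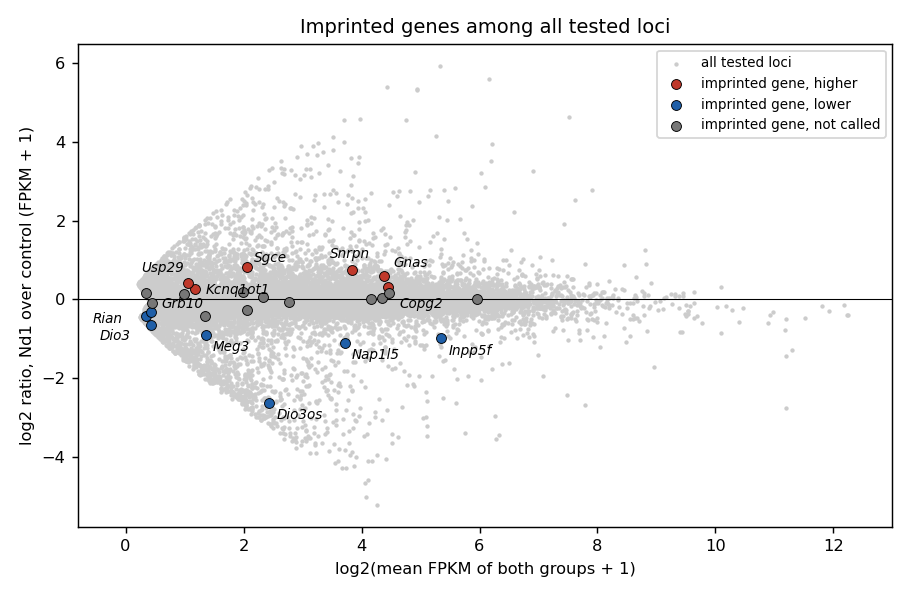
Log2 ratio of Nd1 over control against the mean level of both groups, both on the scale log2(FPKM + 1), for all 14841 tested loci (grey) and the 25 tested imprinted genes. Dio3os at -2.63 lies farthest from 0 among the imprinted genes, and the called genes Rian, Dio3 and Grb10 lie at the low end of expression.

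Among the better expressed imprinted genes, Inpp5f and Nap1l5 had the clearest falls. Inpp5f, an inositol phosphatase gene with a paternally expressed brain isoform, fell to 26.3 FPKM in Nd1, against 53.2 FPKM in control, or 2.02-fold (q listed as 0 in the authors' deposited table). The table does not separate its isoforms. Nap1l5, a paternally expressed gene of the nucleosome assembly protein family, fell to 7.31 FPKM in Nd1, against 16.9 FPKM in control, or 2.31-fold (q = 5.59e-09 in the authors' deposited table). Nap1l5 lies in an intron of Herc3, a ubiquitin ligase gene, which had 61.4 FPKM in Nd1 and 61.2 FPKM in control and was not called. Nap1l5 stood at 11.9% of the Herc3 level in Nd1 and 27.6% in control.

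In the Peg10-Sgce and Mest-Copg2 clusters 1 gene each rose. Sgce, the epsilon sarcoglycan gene whose loss causes myoclonus dystonia in humans, rose to 4.31 FPKM in Nd1, against 2.03 FPKM in control, or 2.13-fold (q = 0.000673 in the authors' deposited table). Peg10, the retrotransposon-derived gene that shares its promoter region with Sgce, had 0.0974 FPKM in Nd1 and 0.0683 FPKM in control and was not tested. Asb4, of the same cluster, was not tested, with 0.0712 FPKM in Nd1 and 0.0391 FPKM in control. Copg2, a subunit of the COPI vesicle coat, rose to 23.4 FPKM in Nd1, against 18.5 FPKM in control, or 1.27-fold (q = 0.000618 in the authors' deposited table). Its neighbour Mest, a paternally expressed hydrolase-fold gene, had 4.15 FPKM in Nd1 and 3.92 FPKM in control and was not called. Nnat, a proteolipid gene in an intron of Blcap, had 3.20 FPKM in Nd1 and 2.72 FPKM in control. Blcap itself had 17.1 FPKM in Nd1 and 16.8 FPKM in control, and neither was called. The test failed for Zrsr1, a splicing factor gene (11.9 FPKM in Nd1 and 11.2 FPKM in control), and for the joined entry of Commd1 and B3gnt2 (62.3 FPKM in Nd1 and 63.4 FPKM in control).

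Gnas, which encodes the stimulatory G protein alpha subunit and several imprinted isoforms, rose to 24.1 FPKM in Nd1, against 15.7 FPKM in control, or 1.53-fold (q = 0.00100 in the authors' deposited table). In mature olfactory neurons the related Gnal carries odour transduction, and it had 924 FPKM in Nd1 and 1672 FPKM in control, with a failed test. A second locus named Gnas had 0.295 FPKM in Nd1 and 0.301 FPKM in control and was not tested. Impact, a regulator of the eIF2 kinase GCN2, had 5.71 FPKM in Nd1 and 5.99 FPKM in control and was not called.

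Sorted by the parental copy that is usually expressed, 4 of 12 tested paternally expressed genes rose and 2 fell. Snrpn, Sgce, Usp29 and Kcnq1ot1 rose, and Dio3 and Nap1l5 fell. Of 6 tested maternally expressed genes none rose and 2 fell, Meg3 and Rian, both of the same cluster. The share called was 50.0% in the paternal class and 33.3% in the maternal class, the second near the 34.4% of all tested loci. The difference between the 2 classes was not tested, and the classes come from textbook knowledge and not from these data. In level, 22 of the 40 genes (55.0%) reached 1 FPKM in a group, beside 48.0% of all loci. The highest single-gene entries in Nd1 were Herc3, Inpp5f, Gnas, Copg2 and Ube3a.

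Thyroid hormone genes around Dio3 were examined as a pathway. Tissue levels of the active hormone are raised by the deiodinase Dio2 and lowered by Dio3. Of 6 tested genes of this list 2 rose and 2 fell (66.7% called, beside 34.4% of all tested loci). Dio2 rose to 37.2 FPKM in Nd1, against 17.4 FPKM in control (q listed as 0 in the authors' deposited table). A second entry of the same name rose to 7.34 FPKM in Nd1, against 2.70 FPKM in control. Both entries have the same coordinates, so the second is not read as a separate rise. Dio3 stood at 0.105% of the main Dio2 level in Nd1 and 3.68% in control. Thra, a thyroid hormone receptor, rose to 83.2 FPKM in Nd1, against 55.6 FPKM in control. Its partner receptor Rxra fell to 6.43 FPKM in Nd1, against 12.4 FPKM in control. Klf9, known as a thyroid hormone target, fell to 2.49 FPKM in Nd1, against 4.23 FPKM in control.

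The insulin-like growth factor pathway, onto which Igf2, Igf2r and Grb10 act, gave 3 higher and 8 lower among 16 tested genes (68.8% called, beside 34.4% of all tested loci). Among binding proteins, Igfbp7 rose to 59.0 FPKM in Nd1, against 8.80 FPKM in control, and Igfbp3 rose to 4.18 FPKM in Nd1, against 0.475 FPKM in control. Igfbp2 fell to 1.46 FPKM in Nd1, against 2.80 FPKM in control. Igfbp5 fell to 3.64 FPKM in Nd1, against 6.02 FPKM in control, and Igfbp4 fell to 1.48 FPKM in Nd1, against 2.48 FPKM in control. Igf2bp2, an RNA-binding protein of Igf2 mRNA, rose to 4.04 FPKM in Nd1, against 1.23 FPKM in control. The receptor adaptor Irs2 fell to 12.2 FPKM in Nd1, against 25.1 FPKM in control. The kinase Akt2 fell to 29.5 FPKM in Nd1, against 56.7 FPKM in control, and the kinase subunit Pik3r1 fell to 1.55 FPKM in Nd1, against 3.50 FPKM in control. In the Notch pathway, to which Dlk1 is related, none rose and 4 fell among 17 tested genes, and their 23.5% lower is near the 19.2% of all tested loci. The ligand Jag1 fell to 9.57 FPKM in Nd1, against 13.3 FPKM in control. The coactivator Maml1 fell to 7.17 FPKM in Nd1, against 8.44 FPKM in control, and the Notch inhibitor Numb fell to 25.99 FPKM in Nd1, against 30.2 FPKM in control.

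Of 50 further genes reported as imprinted in at least some mouse tissues, 48 were in the table. Among 25 tested, 8 rose and 4 fell (48.0% called, beside 34.4% of all tested loci). Besides Kcnq1, the falls included Osbpl5, an oxysterol-binding protein gene of the same chromosome end, with 70.2 FPKM in Nd1 and 106 FPKM in control, and Eif2c2, an Argonaute gene, with 21.2 FPKM in Nd1 and 26.4 FPKM in control. The rises were led by Rasgrf1, a Ras exchange factor gene with a paternally expressed copy in mouse brain, which had 10.4 FPKM in Nd1 and 0.00766 FPKM in control. Dlx5, a homeobox gene, rose to 24.9 FPKM in Nd1, against 1.97 FPKM in control. Cobl, an actin nucleator gene beside Grb10, rose to 5.24 FPKM in Nd1, against 2.36 FPKM in control, where Grb10 fell. Dhcr7, an enzyme of cholesterol synthesis, rose to 5.47 FPKM in Nd1, against 3.45 FPKM in control, while a second locus of that name was not called.

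Of 22 tested genes that set or keep imprints, 4 rose and 4 fell, and their 36.4% called is near the 34.4% of all tested loci. Dnmt1, the maintenance DNA methyltransferase, fell to 9.69 FPKM in Nd1, against 11.1 FPKM in control. Ctcf, the insulator protein of several imprinted clusters, fell to 35.0 FPKM in Nd1, against 39.9 FPKM in control. Setdb1, a histone methyltransferase recruited to imprints, fell to 10.4 FPKM in Nd1, against 11.6 FPKM in control. Trim28, its recruiter, had 36.0 FPKM in Nd1 and 36.9 FPKM in control and was not called. The histone demethylase Kdm1b, which acts before maternal imprints are set in oocytes, rose to 2.70 FPKM in Nd1, against 0.443 FPKM in control. Tet3, an enzyme that oxidises methylated cytosine, rose to 28.4 FPKM in Nd1, against 19.4 FPKM in control. The chromatin factor Arid4b rose to 17.8 FPKM in Nd1, against 15.2 FPKM in control. The histone chaperone Rbbp4 fell to 20.9 FPKM in Nd1, against 27.5 FPKM in control. The data hold no DNA methylation values.

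**Figure D4:**
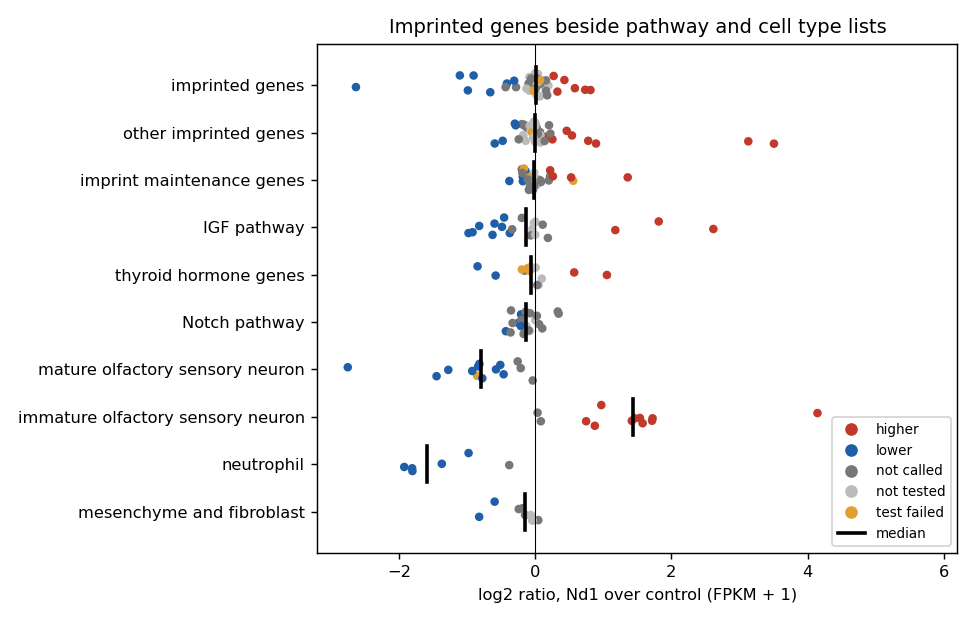
Log2 ratio of Nd1 over control on the scale log2(FPKM + 1) for each gene of the imprinted set and of 9 comparison lists, coloured by the authors' call, with black bars at the medians. The imprinted genes centre near 0 with a tail of falls to -2.63, while the mature neuron markers have a median of -0.80 and the immature neuron markers a median of 1.44.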

How the data were processed

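Mature olfactory sensory neurons were sorted, and their polyadenylated RNA entered Illumina TruSeq libraries, per the labels' protocols. Bowtie, Cuffdiff 1.3.0 and mm9 are named in the submitters' processing notes. The annotation is not stated. Per the file headers, the authors deposited 1 FPKM value for each group beside a log2 fold change, its p-value and its q-value. By their status entries 14841 loci were tested, 12711 were left untested and the test failed for 616. The deposited q-values equal a Benjamini-Hochberg adjustment over the tested loci, within 1% in all of them.

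No column holds a library, so the number of other per-sample columns is 0, depth is unknown, and neither a test across libraries nor an interval was made. Calls are the authors', at q under 0.05. Fold ratios were computed from the pooled FPKM, and list medians on log2(FPKM + 1), a scale that understates changes of low genes (Python 3.11.15, pandas 2.3.3). The quoted q-values are Cuffdiff's, from 2 libraries per group that differ in age and, in the control group, in genotype. How the spread between libraries entered them is not stated, so they are not read as a measure of spread between like replicates. Scaling and counting were tested on simulated data. Loci are printed with 1 added to the start, and they bound the table's entry, not the gene. All 40 genes were followed; from other lists up to 4 called genes per direction of at least 1 FPKM are named by size, and further ones, such as those completing a count or setting a contrast, were chosen after their values were seen. The members and lists were chosen with earlier results of these data known. Alternatives changed the q threshold, the pseudocount, filters, joined entries, the window and the scaling. Some genes of the comparison lists are counted but not reported here by name.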

Additional observations from a re-analysis of the deposited data

How the results depend on the processing

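No paired analysis was possible because the deposited columns carry 1 pooled value per group, and for the same reason no replicate could be left out. The 13 called imprinted genes were recomputed with a pseudocount of 0.1 FPKM and under 3 rescalings. A pseudocount cannot change a direction. None changed direction under the rescalings either, but 2 of them multiplied Nd1 by only 1.04 and 1.07, too little to reverse these ratios. Unchanged directions are therefore no test of the calls. In 7 of the 52 recomputed values the log2 ratio moved by more than 1.5 times, 6 of them in low genes under the smaller pseudocount. The median over the 40 genes stayed between 0.0090 and 0.050. Requiring a 2-fold change left 1 gene higher, and requiring 1 FPKM in a group left 4 lower, since Dio3, Rian and Grb10 are under it. At q under 0.01 the rise in the Peg3 cluster was lost (0 higher), and 2 genes were left in each of 5 counts: those higher among imprint maintenance genes, and those lower among other imprinted genes, the Notch pathway, basal cell markers and sustentacular markers. Within 200 kb in place of 500 kb, 10 neighbouring loci were higher and 12 lower. The depth is unknown, so the counting error of levels under 1 FPKM is too.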

Other observations

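Around all 16 imprinted clusters together, 294 named loci that are not among the imprinted genes lay within 500 kb of the clusters' table entries. Of 122 tested, 20 were called higher and 19 lower (32.0% called, beside 34.4% of all tested loci). Around Impact all 4 tested neighbours were called higher, among them Ttc39c (1.84 FPKM in Nd1 and 0.913 FPKM in control) and the laminin subunit gene Lama3, with 9.11 FPKM in Nd1 and 2.98 FPKM in control, while Impact itself was not called. Beside Gnas, Npepl1, an aminopeptidase-like gene, rose to 4.49 FPKM in Nd1, against 1.95 FPKM in control. Beside Inpp5f, the co-chaperone gene Bag3 fell to 0.922 FPKM in Nd1, against 5.80 FPKM in control. Near Peg3 the zinc finger gene Zfp78 rose to 10.7 FPKM in Nd1, against 5.02 FPKM in control, and 6 of the 9 neighbours called lower there were odorant receptors. The transcript Gm16532 fell to 0.319 FPKM in Nd1, against 3.48 FPKM in control.

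Of 18 loci without a symbol in these windows 3 were tested. The most abundant of them lies in the locus entry of Snrpn and had 20.2 FPKM in Nd1 and 24.4 FPKM in control (q = 0.410 in the authors' deposited table).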
